A study of Arabidopsis thaliana with 15 samples.

Results

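Leaves of ubc22 mutant plants with an abnormal look (Types II, III and IV, 9 libraries) were set against leaves of ubc22 plants that resembled the wild type (Type I, 3 libraries). These are 12 of the 15 RNA-seq libraries of the series, and each abnormal type entered with the same weight. Of 34307 loci in the table, 17595 were tested because their value averaged 10 or more across the 15 libraries. The results below are for the 8687 tested loci, of 16109 in the table, whose AGI code (the Arabidopsis locus name, which begins with the chromosome) places them on chromosome 1 or 5. A value is a normalized read number, that is, the reads of a locus divided by 1 size factor per library. A difference is on the log2(value + 1) scale, abnormal minus Type I, with its standard error.

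All plants were of the Col-0 accession, 21 days old and grown in long days, and the WT group (3 libraries) did not carry the mutation. The mutants descended from a single mutant parent and were sorted by leaf look. Leaves were unusually wide and round in Type II and pale, narrow and elongated in Type III, and Type IV plants were small and their leaves serrated. The lesion in UBC22, the number of plants behind a library and the hour of harvest are not given in the labels. The libraries are called biological replicates, and p-values rest on their spread.

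UBC22 is a ubiquitin-conjugating enzyme (E2). Such enzymes receive activated ubiquitin from an E1 enzyme and, with an E3 ligase, pass it to target proteins, many of which are then degraded by the proteasome. Leaf cells devote much of their RNA to photosynthesis, and leaves of Arabidopsis also make glucosinolates (sulfur-rich defence compounds), flavonoids (sunscreens and pigments) and, on the epidermis, a cuticle of cutin and wax.

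UBC22 itself did not separate the abnormal types from Type I. Its value was 226.5, 251.7 and 304.7 in Type I, 226.6, 287.6 and 302 in Type II, 319.6, 294.4 and 295.6 in Type III and 317.6, 377.9 and 243.5 in Type IV. WT libraries held 663 to 695.6, above every mutant library, and the 4 mutant groups overlapped. The abnormal libraries averaged 296 ± 43.9 (SD, n = 9) and Type I 261 ± 39.9 (SD, n = 3), and an exact two-sided permutation test over 220 splits gave p = 0.282. The fitted difference was 0.18 ± 0.12 (adjusted p = 0.317), and the F test among the 3 abnormal types gave an adjusted p of 0.456. The annotated gene overlaps AT5G05070 on the other strand, and the kit marks no strand, so reads of such pairs cannot be told apart.

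The libraries held 8865955 to 13138977 reads in loci, and chi-square per degree of freedom between libraries of a group was 3.96 to 20.3, so no pair agreed within sampling noise. Whole chromosomes were displaced in single types. The median difference from Type I was 0.50 on chromosome 2 in Type II, 0.48 on chromosome 3 in Type III and -0.40 on chromosome 4 in Type IV. Chromosome 1 stood at -0.06, -0.10 and 0.09 and chromosome 5 at -0.07, -0.09 and 0.12 in Types II, III and IV. In windows of 5 Mb along these 2 chromosomes, medians kept to -0.13 to -0.02 in Types II and III and to 0.06 to 0.15 in Type IV. Of 12 root markers 0 reached the minimum mean and 5 were at 0 in all mutant libraries, and of 5 seed markers 0 reached it.

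**Figure D1:**
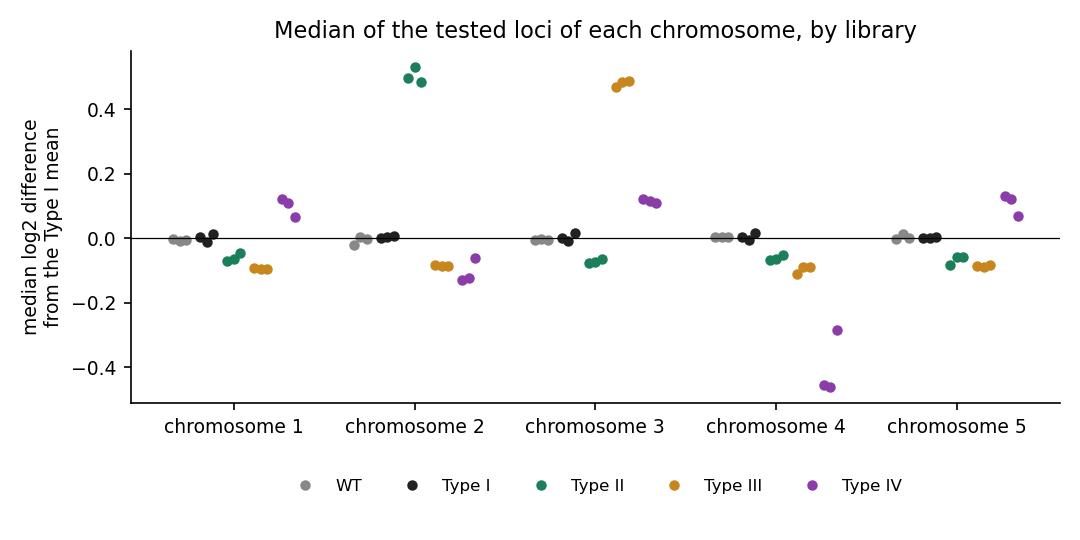
Median over the tested loci of each chromosome of the log2 difference from the Type I mean, 1 point per library, coloured by group. Chromosomes 1 and 5 stay between -0.096 and 0.13 in every library, while chromosome 2 is high in Type II, chromosome 3 is high in Type III and chromosome 4 is low in Type IV.

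Of the 8687 loci, 671 were higher (7.72%) and 1051 lower (12.1%) in the abnormal types than in Type I at an adjusted p under 0.05 in limma, adjusted over all 17595 loci. A stricter rule also asked that all 9 abnormal libraries lie on the same side of all 3 Type I libraries. It kept 110 loci higher (1.27%) and 270 lower (3.11%). Their median differences were 0.55 (0.18 to 2.41) and -0.53 (-2.03 to -0.22), and 14 and 40 of them differed by more than 1. In the 5 Mb windows the kept loci made up 0 to 2.58% of tested loci on the higher side and 1.94 to 3.76% on the lower side.

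The balance of higher and lower loci moved with the scaling. With library totals 972 loci were higher and 779 lower, and the stricter rule kept 210 and 135. With size factors from chromosome 1 and 5 loci alone the numbers were 796 and 942, with 170 and 214 kept. The share of calls that were higher was 39% with the deposited scaling, 55.5% with library totals and 45.8% with factors from chromosomes 1 and 5. Of the 380 loci kept by the stricter rule, 230 and 288 were kept again under these other scalings.

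The 3 abnormal types contributed unequally. They share the Type I libraries, so their differences from it are given side by side and not as independent results. Without Type II, 1411 loci were higher and 1484 lower, and the stricter rule kept 893 and 850. Without Type III, 353 were higher and 379 lower, and the stricter rule kept 152 and 225. Without Type IV, 437 were higher and 1225 lower, and it kept 119 and 496. With a type left out, the stricter rule covers fewer abnormal libraries and is easier to meet, so its counts are not like for like. Among Types II, III and IV themselves 4750 of the 8687 loci differed in the F test (54.7%), and so did 45 of the 110 (40.9%) and 151 of the 270 (55.9%). Leaving out Type I replicate 1 left 364 higher and 631 lower loci, and leaving out Type I replicate 2 left 427 higher.

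WT did not enter the comparison and gives a further reference. The WT mean was nearer to the Type I mean than to the abnormal mean for 93 of the 110 higher and 216 of the 270 lower loci. The range of the WT libraries met the Type I range alone for 41 and 80 loci and the abnormal range alone for 11 and 69. It met both for 50 and 111 and neither for 8 and 10. For 69 lower loci, the WT range thus overlapped that of the abnormal types and Type I stood above both. These loci were kept because Type I lay outside the abnormal range, which spans more libraries than that of Type I. The counts were not made over all tested loci, so they describe the kept loci only.

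Promoter windows were read because light-response genes often carry a G-box, the letters CACGTG, which read the same on both strands. The windows are the 300 bases before the annotated gene start in the TAIR10.1 RefSeq genome, 5′ to 3′ on the gene's strand. The G-box was in 677 of 8616 windows of tested genes (7.86%), in 28 of 269 windows of the kept lower loci (10.4%) and in 3 of 110 of the kept higher loci (2.73%). It was in 4 of 18 windows of clock genes, 4 of 19 of flavonoid genes and 3 of 29 of photosynthesis genes. Glucosinolate genes held it in 1 of 31 windows and cuticle genes in 0 of 20. The W-box TTGACC, searched on both strands, was in 13.6% of all windows, 11.5% of those of lower and 8.18% of those of higher loci. The evening element AAAATATCT, searched likewise, was in 3.05% of all windows, 2.6% of those of lower and 2.73% of those of higher loci. Clock genes held it in 5 of 18 windows. A match describes letters and not a bound site. The flavonoid genes CHIL and CHS and the Rubisco gene RBCS2B, all lower, and GDH1, which was higher, are shown with the G-box in capitals.
CHIL, chr5:1562986-1563285, plus strand: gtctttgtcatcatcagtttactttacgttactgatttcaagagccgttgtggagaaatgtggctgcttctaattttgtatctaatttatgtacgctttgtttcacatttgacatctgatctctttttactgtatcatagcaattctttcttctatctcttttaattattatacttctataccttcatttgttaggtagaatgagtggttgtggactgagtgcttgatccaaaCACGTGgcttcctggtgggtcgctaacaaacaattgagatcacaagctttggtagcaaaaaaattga
CHS, chr5:4488176-4488475, plus strand: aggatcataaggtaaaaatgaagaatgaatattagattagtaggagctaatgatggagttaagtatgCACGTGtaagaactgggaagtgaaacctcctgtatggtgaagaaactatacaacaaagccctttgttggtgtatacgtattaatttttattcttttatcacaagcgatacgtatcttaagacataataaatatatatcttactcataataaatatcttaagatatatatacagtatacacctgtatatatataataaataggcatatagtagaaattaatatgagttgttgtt
RBCS2B, chr5:15382072-15382371, minus strand: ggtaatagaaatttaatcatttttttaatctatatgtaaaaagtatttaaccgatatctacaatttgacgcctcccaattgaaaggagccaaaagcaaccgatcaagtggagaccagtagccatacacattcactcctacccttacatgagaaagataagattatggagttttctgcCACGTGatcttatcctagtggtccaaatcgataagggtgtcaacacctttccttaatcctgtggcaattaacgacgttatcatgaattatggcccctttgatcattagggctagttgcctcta
GDH1, chr5:6005735-6006034, plus strand: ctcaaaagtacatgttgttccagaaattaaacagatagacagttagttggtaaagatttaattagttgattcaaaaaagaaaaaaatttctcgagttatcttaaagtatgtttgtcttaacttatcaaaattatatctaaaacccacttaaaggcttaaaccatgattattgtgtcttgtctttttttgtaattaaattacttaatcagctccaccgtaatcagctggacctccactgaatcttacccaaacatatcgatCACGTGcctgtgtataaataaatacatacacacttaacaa
Counted from the gene start, the first base of the G-box is at -67 in CHIL, -233 in CHS, -123 in RBCS2B and -40 in GDH1, so lower and higher loci both held it.

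Among the 10 higher loci chosen for the size of their smallest type difference, AT1G19530 had the largest difference. Its value was 16.1, 19.29 and 10.47 in Type I, 35.09, 45.52 and 25.86 in Type II, 160.7, 158.4 and 176.3 in Type III and 66.07, 109.6 and 67.48 in Type IV. WT held 7.016 to 20.46 and overlapped Type I, while Type III stood above all other groups. The difference was 2.3 ± 0.28 (adjusted p = 7.72e-05), and the types differed among themselves (F test, adjusted p = 0.000225). RefSeq names its product as a catalytic subunit of DNA polymerase epsilon.

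Genes of nitrogen use and ion transport were among these 10. GDH1 encodes a mitochondrial glutamate dehydrogenase, which releases ammonium and a carbon skeleton from glutamate. It held 912.9, 897 and 944.2 in Type I, 1226, 1143 and 1796 in Type II, 1493, 1599 and 1969 in Type III and 2152, 2284 and 1656 in Type IV. Every abnormal library exceeded every Type I and WT library (WT 792.8 to 1074). The difference was 0.86 ± 0.14 (adjusted p = 0.000716), or 0.57, 0.87 and 1.13 in Types II, III and IV. CIPK23, a protein kinase that acts on potassium channels and a nitrate transporter, held 219.4, 165.9 and 207 in Type I and 264.8 to 444 in the abnormal libraries, with a median of 325.9. WT at 158.8 to 249.1 lay with Type I, below all 9. The difference was 0.82 ± 0.12 (adjusted p = 0.000274), with 0.57, 0.76 and 1.13 in Types II, III and IV (F test, adjusted p = 0.0103). UMAMIT40, of a family of amino acid transporters, held 48.31 to 59.8 in Type I and 65.23 to 103.7 in the abnormal libraries, and its type differences lay close together (0.63, 0.62 and 0.72).

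SUGTL4, annotated in the major facilitator superfamily of transporters, held 23.15 to 32.56 in Type I and 39.12 to 130 in the abnormal libraries (1.21 ± 0.20, adjusted p = 0.000881). OST4B, annotated as a subunit of the complex that attaches N-glycans to proteins, held 25.58 to 45.29 in Type I and 52.76 to 84.05 in the abnormal libraries. WT held 71.83 to 85.36, so for OST4B it was Type I that stood apart, below WT and the abnormal types. AT1G52710, a rubredoxin-like protein, held 38.25, 44.37 and 51.16 in Type I and 63.16 to 100.7 in the abnormal libraries, with type differences of 0.72, 0.88 and 0.86. The uncharacterized loci AT5G66052 (1.38 ± 0.18) and AT5G34790 (1.02 ± 0.21) and the hydrolase-like AT5G25770 (0.66 ± 0.19) made up the 10. AT5G66052, AT5G25770 and GDH1 overlap other annotated genes, as do IMD1, ERF105, KCS2, AT5G21100, LHCA5, PSBP1, CAO, ICU2, BES1 and UBC36 below, so their reads may be shared.

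The 10 lower loci included a pair of enzymes of glucosinolate side-chain elongation. MAM1, the enzyme that condenses methionine-derived chains, held 4007, 4146 and 6258 in Type I, 2376, 2456 and 2944 in Type II, 1766, 2642 and 1741 in Type III and 2848, 2160 and 1435 in Type IV. WT at 2415 to 2542 lay inside the abnormal range and below all of Type I. The difference was -1.09 ± 0.18 (adjusted p = 0.000879), and the F test among types gave an adjusted p of 0.289. IMD1, the dehydrogenase of the same cycle, held 2429, 2397 and 3385 in Type I, 1450, 1390 and 1664 in Type II, 818.8, 1282 and 982.6 in Type III and 1287, 809 and 833.2 in Type IV. WT at 1459 to 1685 overlapped Type II, and Type I again stood above every other library. The difference was -1.26 ± 0.15 (adjusted p = 8.43e-05).

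RUP2, a repressor of the UV-B photoreceptor UVR8, held 132.9, 126.3 and 197.7 in Type I, 93.24, 67.25 and 63.73 in Type II, 29.79, 29.06 and 34.66 in Type III and 70.84, 74.51 and 104.6 in Type IV. Type III was lowest without overlap, and WT (104.1 to 137.2) overlapped Type I and, narrowly, Type IV. The difference was -1.36 ± 0.17 (adjusted p = 8.95e-05; F test among types, adjusted p = 9.18e-05). AT1G13650, uncharacterized, was lowest in Type II (244.2 to 297.8), with 630.1 to 855 in Type III, 571.1 to 1003 in Type IV and 1087 to 1604 in Type I. Its difference was -1.33 ± 0.17, and -2.36, -0.86 and -0.77 by type.

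Others of the 10 are annotated to cell walls, iron and signalling. AT5G21100, annotated as an L-ascorbate oxidase, differed by -1.21 ± 0.14 (adjusted p = 4.97e-05), and by -0.84, -1.90 and -0.90 in Types II, III and IV. NEET, an iron-sulfur protein, held 756.9 to 816.3 in Type I, 273.6 to 647.2 in the abnormal libraries and 588.2 to 650.1 in WT (-1.05 ± 0.18, adjusted p = 0.00119). AT1G76800, of the vacuolar iron transporter family, held 90.7 to 112.8 in Type I and 26.61 to 78.2 in the abnormal libraries.

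ERF105, a transcription factor of the ethylene response factor family, held 106.7, 88.73 and 227.9 in Type I and 38.82 to 77.46 in the abnormal libraries, with a median of 66.5. WT held 33.64 to 50.28, so Type I stood above both. Without Type I replicate 3 the call was lost (adjusted p = 0.0746). AT5G07030, an aspartyl protease, had nearly equal type differences (-0.80, -0.77 and -0.85), although Type II replicate 1 (660.7) came close to the 677.1 to 922.1 of Type I.

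**Figure D2:**
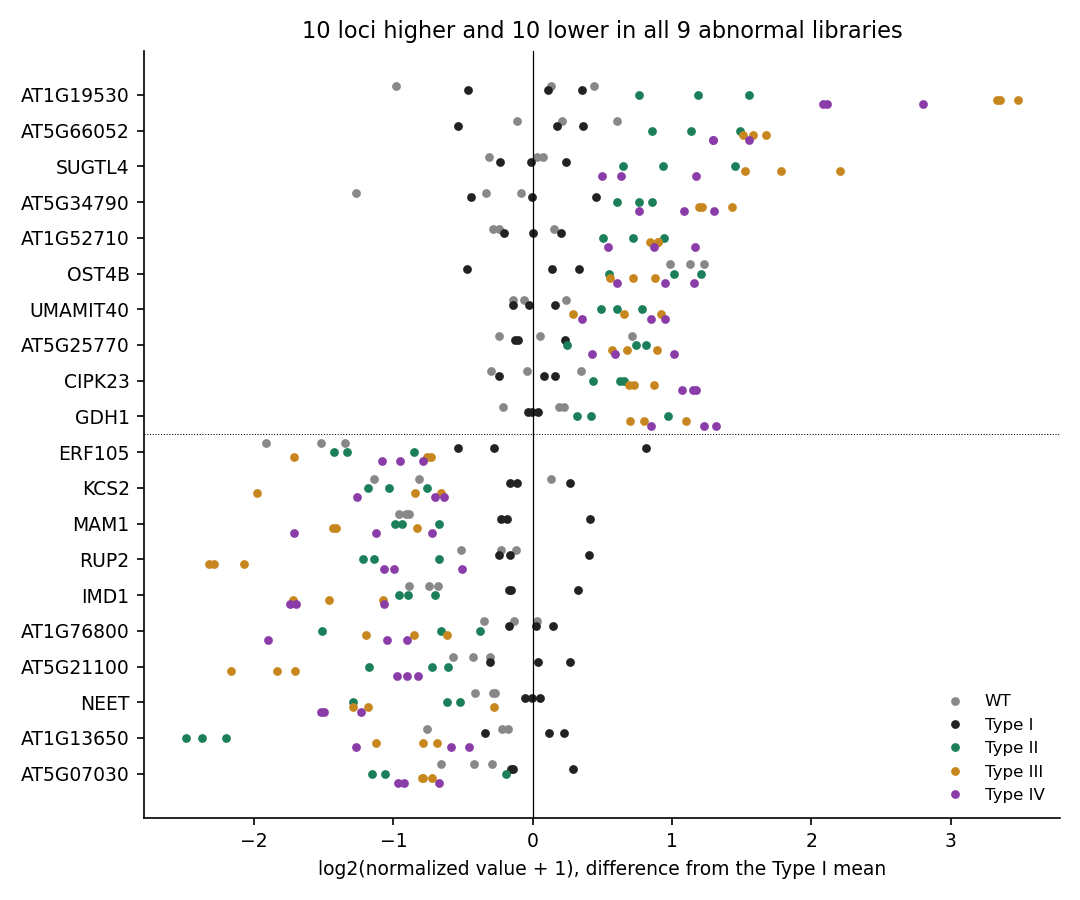
Difference of each library from the Type I mean on the log2(normalized value + 1) scale for the 10 loci higher and the 10 lower in all 9 abnormal libraries, 1 point per library, coloured by group. AT1G19530 is farthest to the right in Type III, and the WT points of MAM1, IMD1, ERF105 and OST4B lie with the abnormal types.

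Gene lists put these loci beside the rest of their pathways. Of 464 tested members of 21 lists, 43 were higher and 100 lower, and the stricter rule kept 5 and 33. Of all 8687 loci, 7.72% were higher and 12.1% lower, and the stricter rule kept 1.27% and 3.11%. Each list count below is to be read beside these shares. Over all 8687 loci the median difference was -0.02, and by type it was -0.07, -0.09 and 0.10 in Types II, III and IV.

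Many photosynthesis genes were lower in the abnormal types. Of 29 tested genes of the light reactions and Rubisco 17 were lower and 0 higher, and 13 were kept by the stricter rule. At an unadjusted p under 0.05, 1 was higher, and edgeR, DESeq2 and limma-voom each called 0 higher. The list median was -0.34, and -0.35, -0.34 and -0.32 in Types II, III and IV. That evenness depended on the scaling, since the type medians were -0.24, -0.36 and -0.21 with library totals and -0.29, -0.24 and -0.41 with factors from chromosomes 1 and 5. Of the 29 genes 12 differed among the types, beside 54.7% of all 8687 loci. With library totals 17 were lower and 1 higher, and without Type I replicate 3, 10 were lower.

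By library the median of the photosynthesis list lay between -0.52 and -0.21 in the abnormal types and between -0.04 and 0.08 in Type I. WT lay at -0.33 to -0.11. The summed value was 1452000 to 1609000 in Type I, 1076000 to 1428000 in the abnormal libraries and 1177000 to 1405000 in WT. Type I therefore held more than every WT and abnormal library. In bulk leaf RNA, fewer cells of a type and less RNA per cell cannot be told apart. Without Type I replicate 3, 10 of the 29 genes were lower.

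Members came from both photosystems and from the electron carriers between and after them. LHCA5, an antenna protein of photosystem I, held 2314, 2253 and 2230 in Type I and 1456 to 1831 in the abnormal libraries, with a median of 1673 (-0.46 ± 0.06, adjusted p = 0.000169). WT (1926 to 2234) lay above the abnormal libraries and overlapped Type I. PSBP1, of the oxygen-evolving complex of photosystem II, held 53520, 51170 and 54970 in Type I and 40140 to 47450 in the abnormal libraries. PSAK of photosystem I held 20100, 20230 and 21920 in Type I and 14270 to 19030 in the abnormal libraries. Both were chosen after their values were seen, for type differences close to each other (-0.32, -0.30 and -0.29 for PSBP1 and -0.35, -0.32 and -0.32 for PSAK).

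The calls of PSBP1 and PSAK were narrow. Their adjusted p was 0.0246 and 0.0263, and without any 1 of the 3 Type I libraries it lay between 0.0531 and 0.102. Ferredoxins accept electrons from photosystem I, and FD1 (-0.85 ± 0.17) and FD2 (-0.66 ± 0.13) were both kept by the stricter rule. So was PETE2, a plastocyanin, which carries electrons to photosystem I (-0.49 ± 0.10).

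The Rubisco small subunit genes on chromosome 5 differed in how the types were ordered. RBCS2B held 36460, 39450 and 43150 in Type I, 30440, 33550 and 23690 in Type II, 13490, 11660 and 15560 in Type III and 26170, 24970 and 25790 in Type IV. Type III held the lowest values without overlap, and WT (32170 to 38660) overlapped Type I. The difference was -0.88 ± 0.12 (adjusted p = 0.000149; F test among types, adjusted p = 2.94e-05). RBCS1B differed by -0.40, -2.13 and -0.95 and RBCS3B by -0.49, -0.41 and -0.42 in Types II, III and IV. These genes are near-identical copies, so the split of reads among them is uncertain.

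Chlorophyll synthesis genes were lower in 5 of 15 cases and higher in 0, also at an unadjusted p under 0.05 and in edgeR, DESeq2 and limma-voom. CAO, which makes chlorophyll b, held 6119 to 6531 in Type I, 4901 to 5846 in Type II, 3622 to 3759 in Type III and 4297 to 6131 in Type IV. GLK2, a regulator of chloroplast genes, held 1657 to 1916 in Type I, 1251 to 1347 in Type II, 920.6 to 1065 in Type III and 1552 to 1928 in Type IV. Type III was lowest in both, and Type IV overlapped Type I in both. CHLH, a subunit of magnesium chelatase, was the 1 gene kept by the stricter rule (-0.43 ± 0.10, and -0.49, -0.56 and -0.25 by type). Without Type III the calls of CAO and GLK2 were lost (adjusted p = 0.107 and 0.052), and 1 of the 15 was lower.

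Many of the tested genes of a cuticle list were lower in the abnormal types. A list of 22 cuticle genes was drawn up after KCS2 and CYP86A4 had been seen among the lower loci, so its count is a description. Of 20 tested, 14 were lower and 8 were kept by the stricter rule, and KCS2 itself is counted in both. The median was -0.54, and -0.38, -0.89 and -0.28 in Types II, III and IV. Without Type III, 7 were lower.

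CYP86A4, a fatty acid hydroxylase of cutin synthesis, held 100.7, 81.02 and 97.68 in Type I, 43.11, 43.45 and 39.71 in Type II, 27.08, 16.87 and 24.46 in Type III and 54.92, 61.74 and 63.56 in Type IV. The 4 mutant groups were separate from each other, and WT (85.47 to 104.7) overlapped Type I. The difference was -1.25 ± 0.14 (adjusted p = 5.21e-05; F test among types, adjusted p = 3.82e-05). Its relatives CYP86A7 (-1.50 ± 0.35) and CYP77A4 (-1.12 ± 0.25) were also kept. PEL3, an acyltransferase needed for cutin, held 643.3 to 889.5 in Type I and 337.4 to 586.7 in the abnormal libraries (-0.73 ± 0.10, adjusted p = 0.000182). KCS20 and KCS2 are elongases of very-long-chain fatty acids. KCS20 held 1379 to 1849 in Type I and 694.1 to 1299 in the abnormal libraries, and KCS2 held 74.42 to 100.7 and 20.39 to 53.22. KCS2 lost its call without Type I replicate 1 (adjusted p = 0.1) or 2 (0.0506).

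Some wax genes had another pattern. CER1, of wax alkane synthesis, was called lower (-0.37 ± 0.13, adjusted p = 0.0466), with -1.13, 0.06 and -0.04 in Types II, III and IV. CER3, which acts with CER1, stood at 0.05 ± 0.16 (adjusted p = 0.866), and the regulator MYB16 at 0.07 ± 0.12 (adjusted p = 0.701). Of 5 stomatal marker genes SPCH, EPF2 and MYB60 were lower. The summed value of the 5 was 604.7 to 646.5 in Type I, 546.8 to 671.4 in Type II, 361.9 to 428.1 in Type III and 424.7 to 551.5 in Type IV. The epidermal markers GL2, CER1 and KCS6 summed to 6822 to 10040 in Type I and to 7322 to 9081 in Type IV, inside the Type I range. They summed to 5380 to 6570 in Type II, 5770 to 6724 in Type III and 5288 to 6791 in WT, all below Type I. CER1 is also the wax gene above, so this sum is not separate from the cuticle values. The part of epidermal cell numbers in the cuticle values was not tested.

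Glucosinolate genes were lower, by value mainly in Types III and IV, and WT lay near Type IV. Of 31 tested glucosinolate and camalexin genes 15 were lower and 0 higher, and 4 were kept by the stricter rule (MAM1, IMD1, CYP79F1 and FMOGSOX5). Higher genes were also 0 at an unadjusted p under 0.05 and in edgeR, DESeq2 and limma-voom. The median was -0.42, and -0.05, -1.23 and -0.54 in Types II, III and IV. By library it was -0.74 to -0.22 in WT, -0.92 to -0.30 in Type IV and -0.12 to 0.02 in Type I. The regulators MYB28 (0.15, -1.98 and -1.11) and MYB29 (-0.10, -2.09 and -1.09), which switch on the aliphatic branch, were among the 15. Without Type III, 7 of the 31 genes were lower.

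CYP79F1, which converts elongated methionine to aldoximes, held 1622, 1546 and 2141 in Type I, 1062, 815.2 and 1408 in Type II, 126.4, 356.2 and 91.73 in Type III and 558, 455.6 and 365.7 in Type IV. The 4 mutant groups did not overlap, and WT (542.7 to 1049) met Types II and IV. The difference was -2.03 ± 0.31 (adjusted p = 0.000446). Its near-identical neighbour CYP79F2 stood at 0.31, -2.93 and -1.13 by type, and the split of reads between them is uncertain. MAM3, next to MAM1, held 116.3 to 151.4 in Type I, 109.9 to 138.6 in Type II, 23.44 to 25.48 in Type III and 76.64 to 109 in Type IV. Type II overlapped Type I, and without Type III the call of MAM3 was lost (adjusted p = 0.15).

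FMOGSOX5, which oxidizes the sulfur of the side chain, held 371.4, 393.5 and 364 in Type I, 302.8, 310.4 and 275.2 in Type II, 279.9, 306.6 and 294.6 in Type III and 255.5, 280 and 350.1 in Type IV. Every abnormal library was below every Type I library, and WT (402.8 to 452.5) was above them all. Its type differences were -0.35, -0.36 and -0.36 (F test, adjusted p = 0.99), against 0.05, -2.89 and -1.35 for FMOGSOX1 and -0.28, -2.68 and -1.36 for FMOGSOX3. FMOGSOX5 overlaps 3 other annotated genes and lost its call without Type I replicate 2 (adjusted p = 0.0531). CYP79F1 and FMOGSOX5 were chosen after their values were seen, so the F test of FMOGSOX5 is a description.

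**Figure D3:**
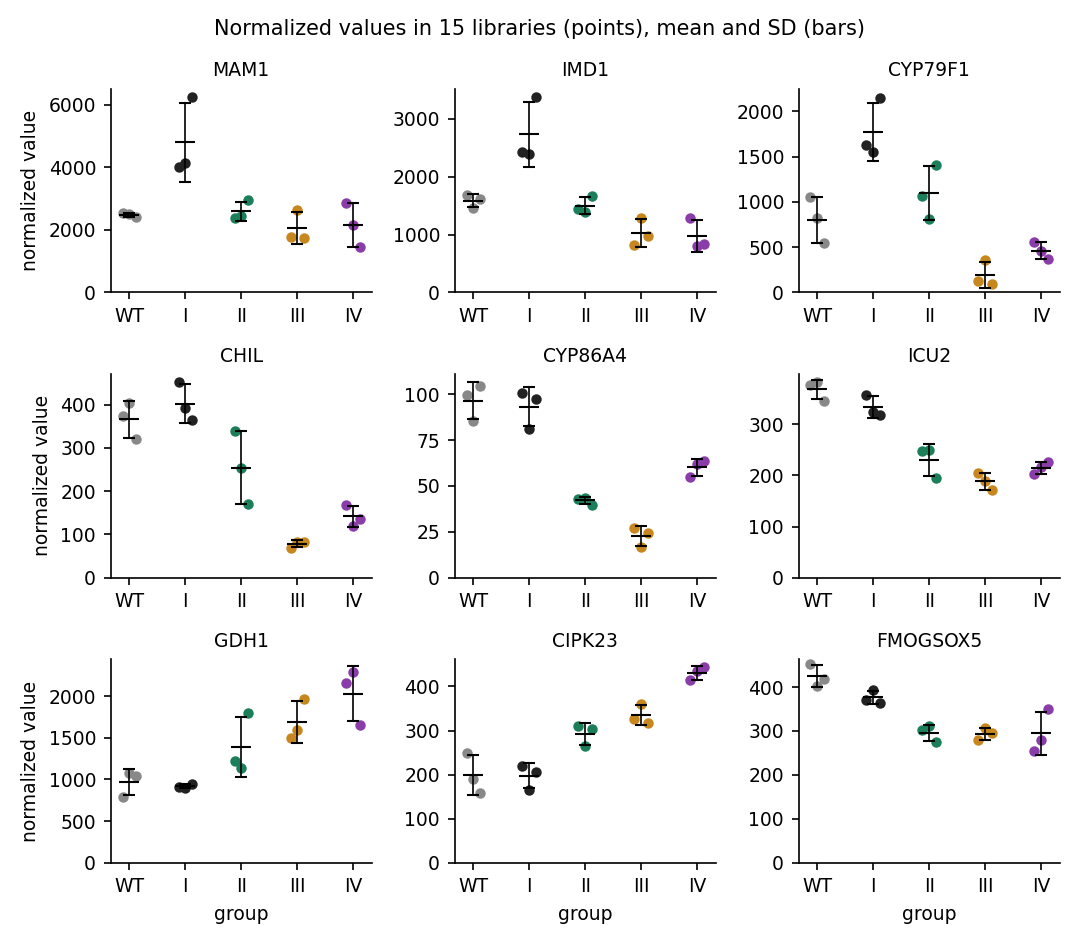
Normalized values of 9 genes in the 15 libraries by group (WT and Types I to IV), 1 point per library, with the mean and SD of each group of 3 as bars and each vertical axis starting at 0. MAM1, IMD1 and CYP79F1 are highest in Type I, CHIL, CYP86A4 and ICU2 are high in both WT and Type I, and GDH1 and CIPK23 are lowest in WT and Type I.

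Flavonoid genes were lower, with the lowest medians in Type III. Of 19 tested genes 14 were lower and 0 higher, and 5 were kept by the stricter rule (CHS, CHIL, UGT78D1, UGT78D2 and OMT1). At an unadjusted p under 0.05, 0 were higher, and edgeR, DESeq2 and limma-voom each called 0 higher. The median was -1.30, and -0.29, -2.22 and -1.18 in Types II, III and IV. By library it was -0.36 to -0.11 in Type II, which overlapped WT (-0.53 to -0.21). It was -2.45 to -1.87 in Type III and -1.66 to -0.73 in Type IV. Without Type III, 9 of the 19 were lower.

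CHS, chalcone synthase, begins the pathway. It held 3936, 3642 and 3766 in Type I, 3635, 2758 and 1937 in Type II, 521.8, 915 and 1056 in Type III and 1937, 1056 and 1394 in Type IV. The highest Type II library nearly reached the lowest Type I library, so the stricter rule was met narrowly, and WT held 2597 to 3261. CHS was chosen after its values were seen, and it overlaps an annotated gene on the other strand. CHIL, a helper protein of chalcone synthase, held 450.9, 391.6 and 364 in Type I, 338.9, 253.5 and 169.9 in Type II, 69.51, 83.44 and 82.56 in Type III and 168, 120.3 and 135.9 in Type IV. WT (320.1 to 403.7) overlapped Type I and, by a single library, Type II. The difference was -1.52 ± 0.16 (adjusted p = 4.18e-05; F test among types, adjusted p = 3.58e-05).

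UGT78D2, which adds glucose to flavonols and anthocyanins, held 416.7 to 525.6 in Type I, 298.3 to 346.9 in Type II, 75.94 to 127.4 in Type III and 210.8 to 252.3 in Type IV, and the 4 groups were separate. The anthocyanin genes DFR (-0.24, -3.16 and -1.79) and UGT79B1 (-0.14, -4.68 and -3.45) had their smallest differences in Type II. HY5, a light-response regulator from another list, was lower as well (-0.64 ± 0.18, adjusted p = 0.0214, and -0.48, -1.29 and -0.15 by type).

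**Figure D4:**
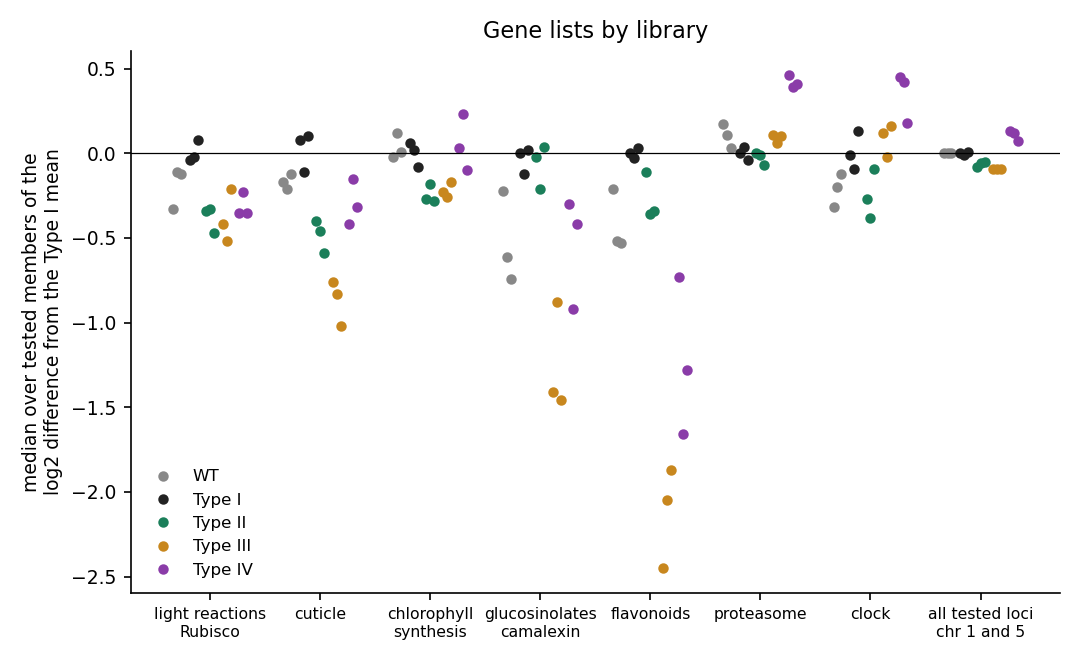
Median over the tested members of a gene list of the log2 difference from the Type I mean, 1 point per library, coloured by group, for 7 lists and for all tested loci of chromosomes 1 and 5. Photosynthesis medians of the 9 abnormal libraries lie between -0.52 and -0.21, flavonoid medians separate Types III and IV from Type II, and proteasome medians are highest in Type IV.

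Most tested genes of the circadian clock, which times gene activity over the day, differed among the abnormal types. Of 18 tested clock genes 8 were higher and 5 lower, and 16 differed among the types, beside 54.7% of all 8687 loci. Other lists were similar, with 24 of 27 proteasome and 27 of 31 glucosinolate and camalexin genes. TOC1 was the 1 clock gene kept by the stricter rule. The clock genes named here have differences above 0, and the 5 lower ones are not named. Over all 18 the median difference was 0.05 and 9 were above 0, so the named genes do not stand for the list. GI, PRR5 and PRR3 below were picked outside the rule that named TOC1 and FKF1. TOC1, an evening repressor, held 190.2, 189 and 162.8 in Type I, 211.5, 200.7 and 217 in Type II, 604, 720 and 543.3 in Type III and 414.7, 375.8 and 383.3 in Type IV. Type II was just above Type I and overlapped WT (166.4 to 222.6), and Types III and IV were far above. FKF1, a blue-light receptor of the afternoon, held 0 to 1.007 in Type I, 0 to 1.003 in Type II, 193.7 to 252.2 in Type III and 11.73 to 25.55 in Type IV. GI (-0.36, 3.54 and 2.05), PRR5 (-0.90, 5.45 and 3.35) and PRR3 (-0.30, 3.78 and 1.73) had the same order of types by value. With no harvest hour in the labels, time of day and type cannot be told apart. The part of the clock in the values of other gene groups was not tested.

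The starch genes GBSS1 and DPE1 had their smallest differences in Type II and their largest in Type III, in opposite directions. GBSS1, which makes amylose, held 1767 to 2052 in Type I, 1423 to 2057 in Type II, 266.2 to 340.4 in Type III and 683.6 to 1035 in Type IV. DPE1, of starch breakdown, held 189 to 221.4, 197.5 to 243.1, 789.9 to 830.6 and 370.6 to 504.6 in the same groups. Type II overlapped Type I in both. Of 28 tested starch and sugar genes 8 were higher and 3 lower, beside 7.72% and 12.1% of all tested loci. SWEET12, a sucrose exporter, was the 1 kept by the stricter rule (0.53 ± 0.13, adjusted p = 0.0107, and 0.76, 0.33 and 0.50 by type). SWEET12 and GPT2, a plastid glucose-phosphate translocator, had their largest differences by value in Type II instead (GPT2 2.45, 0.96 and 1.89, adjusted p = 0.0327 over the 3 types), and neither passed the F test among types (adjusted p = 0.0849 and 0.159).

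A minority of proteasome genes were higher, with the largest differences by value in Type IV. Of 27 tested 8 were higher and 0 lower (0 lower also at an unadjusted p under 0.05 and in edgeR, DESeq2 and limma-voom), and 26 had a difference above 0, beside 4144 of all 8687 loci. The median was 0.18. By library it was -0.07 to 0.00 in Type II, 0.06 to 0.11 in Type III and 0.39 to 0.46 in Type IV. WT at 0.03 to 0.17 spanned the Type III values and lay below Type IV. With library totals the type medians were 0.07, 0.07 and 0.54, so Type III did not stand above Type II there. With factors from chromosomes 1 and 5 the type medians were 0.03, 0.18 and 0.34, and Type III stood above Type II. No member was kept by the stricter rule, 18 were higher without Type II, and 3 without Type IV.

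RPT6B, an ATPase of the proteasome's regulatory particle, held 335.2, 323.1 and 320.9 in Type I, 327.8, 319.7 and 334.3 in Type II, 621.1, 711.6 and 549.4 in Type III and 778.5, 690.8 and 717.8 in Type IV. Type II overlapped Type I, and Types III and IV were above both and above WT (353.8 to 419.8; F test among types, adjusted p = 9.95e-07). RPT6A and RPT6B are close copies, so reads may be shared. Of 20 tested ubiquitin-conjugating genes 4 were higher. UBC36, kept by the stricter rule, held 764 to 846.8 in Type I and 865.9 to 991.8 in the abnormal libraries (0.18 ± 0.06, adjusted p = 0.0297). Its call was lost without Type I replicate 1 (adjusted p = 0.0676) or 3 (0.143). Without Type I replicate 1, without Type III or without Type IV, 0 of the 20 were higher.

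Of 32 tested cell cycle and replication genes 6 were lower, beside 12.1% of all tested loci, and the list median (-0.07) was near that of all loci. ICU2, the catalytic subunit of DNA polymerase alpha, held 358.3, 325 and 317.4 in Type I, 247.6, 250.4 and 194.9 in Type II, 204, 188.4 and 172.3 in Type III and 203, 216.1 and 225.9 in Type IV. WT (346.6 to 381.9) and Type I overlapped, above all 9 abnormal libraries. The difference was -0.66 ± 0.09 (adjusted p = 0.000171; F test among types, adjusted p = 0.0757). MCM2, of the replicative helicase, held 205.8 to 262.7 in Type I and 67.27 to 202.5 in the abnormal libraries, and without Type I replicate 1 its call was lost (adjusted p = 0.0584). Without that library, or without Type III, 1 of the 32 was lower. Of 19 tested histone genes 6 were lower, with HTA6 at -0.06, -0.88 and -0.15 by type, a call lost without Type III (adjusted p = 0.396).

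Of 25 tested leaf shape genes 4 were lower and 1 higher, beside 12.1% and 7.72% of all tested loci. Without Type III, 1 was lower and 0 higher, without Type I replicate 3, 2 were lower and 0 higher, and without Type I replicate 1, 0 were higher. AS2, which helps to set the upper side of the leaf, held 35.69 to 46.51 in Type I, 17.81 to 35.1 in the abnormal libraries and 32.49 to 40.01 in WT (-0.69 ± 0.15, adjusted p = 0.00507). Of 32 tested auxin genes 5 were lower, but 3 without Type I replicate 1 or 2 or without Type III, and 8 without Type II. IAA17, a repressor of auxin response, was kept by the stricter rule, at -0.38, -0.44 and -0.53 by type, and was chosen after its values were seen.

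Of 24 tested gibberellin, brassinosteroid and light genes 4 were higher and 4 lower, beside 7.72% and 12.1% of all tested loci. GASA4, a gibberellin-responsive peptide gene, held 760.9, 661.6 and 855.8 in Type I, 878.2, 1005 and 1141 in Type II, 1837, 1565 and 1586 in Type III and 1254, 1327 and 1447 in Type IV. The 4 groups were separate, and WT (630.6 to 721.5) overlapped Type I (0.79 ± 0.09, adjusted p = 7.65e-05). BES1, a transcription factor of brassinosteroid response, held 894.1 to 1252 in Type I and 445.3 to 779.2 in the abnormal libraries (-0.79 ± 0.12, adjusted p = 0.000367). WT at 643.1 to 835.1 lay below Type I. In cell walls, CESA5 of cellulose synthesis stood at -0.21, -1.25 and -0.87 by type, and XTH5, a xyloglucan-modifying enzyme, held 31.4 to 36.65 in Type I and 38.1 to 82.15 in the abnormal libraries.

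Of 15 tested iron genes 6 were lower and 2 higher, beside 12.1% and 7.72% of all tested loci, and 0 were kept by the stricter rule. Without Type I replicate 2, 2 were lower and 1 higher, and without Type I replicate 1 or without Type III, 3 were lower and 0 higher. Without Type IV, 1 was higher. FER1, a ferritin that stores iron, differed by -1.26, -0.91 and -0.80 in Types II, III and IV (-0.99 ± 0.27, adjusted p = 0.0178). NAS1, a nicotianamine synthase for metal transport, held 199.3 to 204.7 in Type I, 203.2 to 415.9 in Type II, 20.39 to 36.56 in Type III and 26.61 to 84.1 in Type IV. Type II lay at or above Type I, and the other types lay below it (F test, adjusted p = 5.36e-06).

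Of 25 jasmonate genes 5 were lower, beside 12.1% of all tested loci, but 2 without Type I replicate 1 or 2, 1 without Type III and 8 without Type II. JMT, which makes methyl jasmonate, held 97.63 to 108 in Type I, 18.58 to 94.21 in the abnormal libraries and 56.56 to 66.65 in WT (-1.28 ± 0.21, adjusted p = 0.000858). Of 18 salicylic acid genes 0 passed in limma, edgeR, DESeq2 or limma-voom, and 2 were higher and 0 lower at an unadjusted p under 0.05. Among the types 15 of the 18 differed, beside 54.7% of all 8687 loci. Of 35 abscisic acid and cold genes 3 were higher and 5 lower, beside 7.72% and 12.1% of all tested loci. ABA1, an enzyme of abscisic acid synthesis, held 6485 to 6958 in Type I and 4203 to 6014 in the abnormal libraries.

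Of 18 heat shock genes 1 was higher and 1 lower, of 12 senescence genes 2 were higher, of 12 flowering genes 1 was higher and 2 lower, and of 15 ethylene genes 1 was lower (ERF105). The floral identity gene AP1 was at 0 in all 3 Type II libraries and held 12.79 to 20.25 in Type I, 12.23 to 33.75 in Type III, 9.552 to 12.71 in Type IV and 4.813 to 6.365 in WT. Of 140 tested ribosomal protein genes 4 were higher and 12 lower, and of 104 pentatricopeptide genes 1 and 4. Of 35 TIR-NBS-LRR genes 0 were higher and 2 lower, and of 15 WRKY genes 2 and 2. Over all tested loci 7.72% were higher and 12.1% lower. Of 39 cytochrome P450 genes 2 were higher and 10 lower, and 5 of these were kept by the stricter rule.

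**Figure D5:**
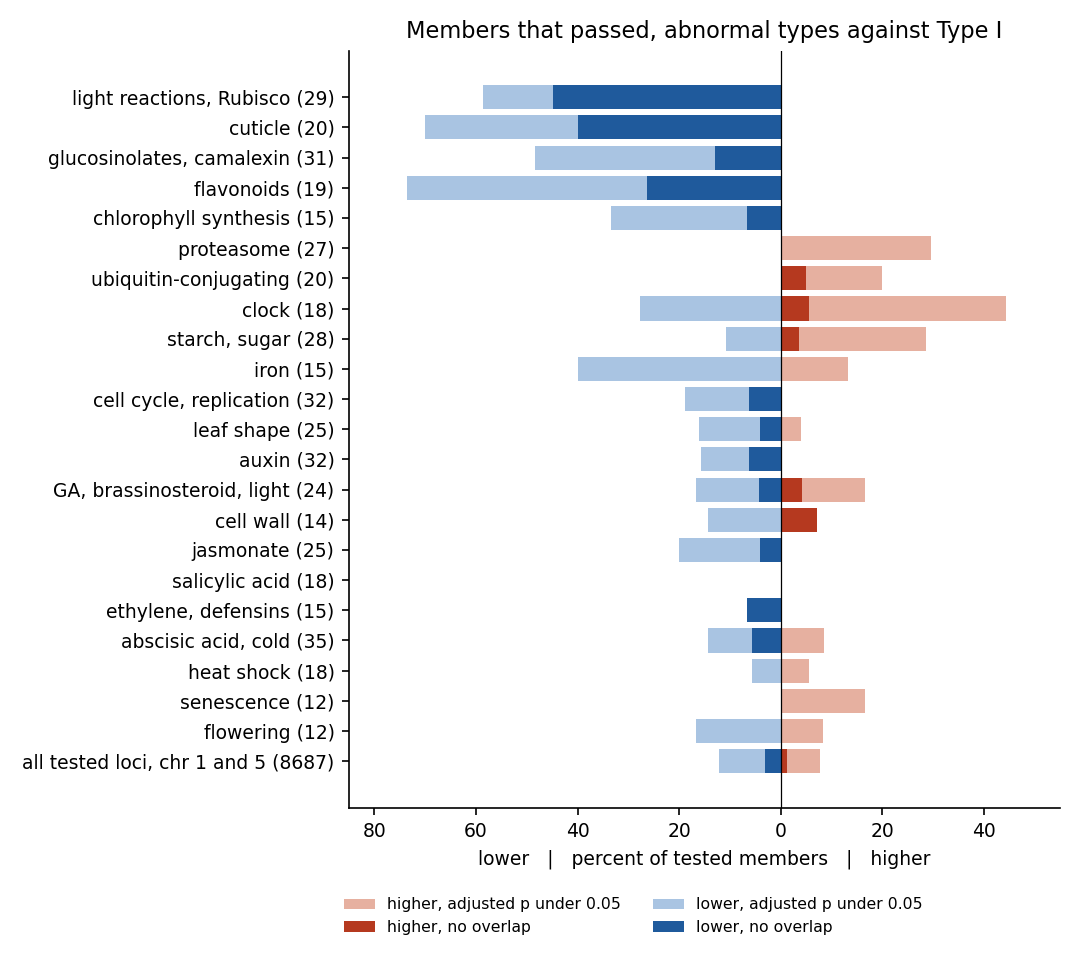
Percent of the tested members of each gene list (numbers of members in brackets) that were higher (right) or lower (left) in the abnormal types than in Type I; pale bars pass the adjusted p and dark bars also have no overlap between the 9 and the 3 libraries. Beside all 8687 tested loci, of which 7.72% were higher and 12.1% lower, flavonoid, cuticle and photosynthesis genes reach farthest to the lower side. The cuticle list was drawn up after KCS2 and CYP86A4 had been seen among the lower loci, so its bar is a description.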

How the data were processed

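RNA of leaves was sequenced in 15 libraries made with TruSeq RNA v2, called biological replicates in the labels. The authors deposited 1 table of 34307 loci whose values are a normalized signal: reads per locus divided by 1 size factor per library (100% whole multiples of 1 step per library within 1e-06, so reads could be recovered). The submitters' processing notes name the TAIR10 build and the tools DESeq2 1.12.4, HTSeq 0.6.0, StringTie 1.0.3 and STAR 2.4.0j, in no stated order or role.

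Here log2(value + 1) was fitted with limma 3.58.1 (R 4.3.3) over all 15 libraries and 17595 loci, with Benjamini-Hochberg adjustment over all of them. Recovered reads were tested with edgeR 4.0.16, DESeq2 1.42.0 and limma-voom. Loci were placed by AGI code, and 15237 of 15433 codes on chromosomes 1 and 5 were in the TAIR10.1 RefSeq annotation, which gave promoters; 260 loci without a code (0.136% of reads) have no chromosome here. Named are UBC22, the 10 higher and 10 lower loci of the stricter rule that average 50 or more in the 12 mutant libraries and have the largest smallest type difference, and up to 2 called members with the smallest p per list and 1 per family. A gene that this rule names is not reported here. Members and lists were chosen with earlier results of these data known. The ribosomal family was matched on a wider annotation text than first written. On simulated data with 17595 genes, 53.7% of 67 genes changed 1.5-fold, 82.1% of 67 changed 2-fold and 98.5% of 66 changed 4-fold were recovered. There were 5 false calls, and 0 false calls among the types. In the real data, 54.7% of the 8687 tested loci of chromosomes 1 and 5 differed among the types, and whole chromosomes were displaced. Recovery and false calls under such conditions were not tested, so the simulated figures do not carry over to the real data.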

Additional observations from a re-analysis of the deposited data

Results flagged for a closer look

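Of 70 named genes, 49 differed in size among Types II, III and IV (F test across all tested loci, limma, adjusted p under 0.05), so their differences from Type I are not 1 common value. The share over all 8687 loci of chromosomes 1 and 5 was 54.7%. Among the genes higher in the abnormal types, the adjusted p of the F test was 0.000225 for AT1G19530, 0.00421 for SUGTL4, 0.0103 for CIPK23, 0.0292 for GDH1, 9.71e-07 for TOC1 and 1.43e-07 for FKF1. It was further 0.000325 for GASA4, 0.000369 for HSFA8, 3.63e-06 for ABF1, 0.00446 for ANAC087, 0.0101 for CAT3 and 9.95e-07 for RPT6B. The value was 0.000371 for RPT5B, 0.00838 for UBC33, 5.3e-07 for DPE1, 0.00185 for XTH5, 1.36e-06 for AT5G24490 and 2.47e-06 for WRKY57. Among the genes lower in the abnormal types, the adjusted p was 9.18e-05 for RUP2, 0.014 for IMD1, 0.000107 for AT5G21100, 2.78e-05 for AT1G13650, 2.94e-05 for RBCS2B and 4.06e-05 for GLK2. It was also 0.00229 for CAO, 0.000278 for JMT, 0.0013 for KAT5, 1.69e-07 for MAM3, 0.00305 for MCM2 and 0.0217 for AS2. Next, the F test gave 0.000972 for ARF8, 0.000114 for IAA12, 0.00552 for HSP70-1, 0.00609 for ABA1 and 2.25e-06 for UGT78D2. A further set had 3.58e-05 for CHIL, 1.58e-06 for AP1, 1.08e-07 for GBSS1, 4.37e-06 for CESA5, 6.49e-06 for NAS4 and 5.36e-06 for NAS1. The remaining values included 7.43e-06 for HTA6, 7.81e-05 for AT5G13770, 1.27e-05 for AT5G46270, 3.82e-05 for CYP86A4, 0.000111 for CYP79F1 and 0.000198 for CHS. For the last pair it was 0.00125 for PEL3 and 0.00433 for KCS20. FKF1 and AP1 were at 0 in some groups, and their levels are given above. AP1 counts as lower through Type II, and without Type II its limma call was lost (-0.25, adjusted p = 0.59).

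The Type II replicate 1 library stood apart from the other 8 abnormal libraries for AT5G07030, at 660.7 where the nearest held 472.3. The gap was 0.584 of the range of the 9 libraries, past Dixon's 95% critical value for 9 values. Chance gives such a gap in about 1 in 20 groups.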

How the results depend on the processing

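Counts are of higher, lower, kept higher and kept lower loci (kept: no overlap between the 9 and the 3 libraries). edgeR gave 586, 1147, 104 and 278, and DESeq2 628, 1054, 104 and 269. TMM gave 610, 1115, 96 and 294. Kept loci were 210 and 135 with library totals, and 170 higher with factors from chromosomes 1 and 5. At a threshold of 0.01, 272 were higher, 531 lower, 65 kept higher and 3088 differed among types, with 23 higher and 63 lower list members. Without 1 library the higher loci ranged from 364 to 786, lower loci from 631 to 1131, kept higher from 102 to 169, kept lower from 266 to 375, and loci that differ among types from 4140 to 4995. List members then ranged from 26 to 52 higher and from 65 to 104 lower. The lowest higher and lower counts were without Type I replicate 1, and the 169 without Type II replicate 1.

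Without Type II, 1411 were higher, 893 and 850 were kept, 2563 differed among types and 88 list members were higher. Without Type III, 353 were higher and 379 lower, 2955 differed among types, and 27 and 49 list members passed. Without Type IV, 437 were higher and 496 kept lower. The no-overlap rule is easier to meet with a type left out, since it then covers fewer abnormal libraries. The cause of these shifts was not tested. For the named genes, 2020 values under alternatives kept direction and side of the threshold, 76 lost the call and 0 reversed. The alternatives share most of their libraries, so these values are not independent. Of the 70 genes counted, 44 kept their call under every alternative, and the others lost it in some setting. No paired analysis was possible because the labels give the groups no shared replicate numbers. Depth limits loci of low value: the minimum mean of 10 left 17595 of 34307 loci.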
